A study of Rattus norvegicus with 20 samples.

Results

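Transcript levels of the cholesterol synthesis pathway and of the sterol-sensing machinery that controls it were followed in rat liver. The module holds 29 genes listed by function, and 28 of them have a value among the 32883 genes of the table. Of these 28 genes, 26 passed a filter on low values and were tested. The other two, the keto reductase Hsd17b7 and the membrane protease Mbtps2, lay at or below 0.727 and 0.314 TPM in every liver. For one listed gene, Lbr, the promoter sequence alone was used here.

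Livers of 20 male rats were sequenced as RNA libraries, 1 for each rat, with 5 rats in each of 4 groups. CON rats were given only 0.5% CMC-Na, a cellulose vehicle. BGZ_L rats were given BGZ_L powder at 0.9 g/kg, which the title of the series links to Psoraleae Fructus, the fruit of a plant used in Chinese medicine. KYDS rats were given hydrocortisone, a glucocorticoid, at 25 mg/kg, and the labels list their disease state as kidney-yang deficiency syndrome. Both agents together, at those doses, went to the KYDS+BGZ_L rats. The labels do not say whether the other groups also received the vehicle. All groups are livers of the same sex, and the labels used here give no strain, age or duration of dosing. Levels are TPM (a length-scaled transcript abundance) after scaling between libraries, and the number of reads behind them is unknown. Differences are log2 values of scaled TPM plus 0.5, given ± SE, and folds are taken from them. The added 0.5 understates changes of genes with low values. Each adjusted p comes from limma (two-sided, Benjamini-Hochberg over the 11958 genes tested), and a member passed where it was under 0.05.

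Cells build cholesterol from acetyl-CoA in the cytosol and the endoplasmic reticulum. The early enzymes make mevalonate and isoprenoids, the middle ones join isoprenoids into squalene and close it to lanosterol, and the late ones trim lanosterol to cholesterol. Transcription of nearly all of these enzymes is driven by SREBP2, the product of Srebf2. When membrane sterols are plentiful, the Insig proteins hold SREBP2 and its escort Scap in the endoplasmic reticulum. When sterols are scarce, the complex moves to the Golgi, where the proteases of Mbtps1 and Mbtps2 release the active factor. Insig1 is itself a target of SREBPs, so its transcript usually follows the enzymes, and the liver is the main site of this synthesis in the body.

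The libraries differed in composition along with the groups. The 13 mitochondrially encoded genes held 75.1% ± 10.2 of CON libraries and 67.3% ± 17.3 of BGZ_L libraries, against 42.4% ± 18.0 in KYDS and 48.9% ± 17.7 in KYDS+BGZ_L (mean ± SD, n = 5). By a two-sided exact permutation test the share was lower in KYDS than in CON (p = 0.0238, adjusted over 2 comparisons 0.0476). The difference between KYDS+BGZ_L and BGZ_L did not pass the exact permutation test (p = 0.135, smallest possible 0.00794). Scaling factors ran from 0.228 to 1.37 without hydrocortisone and from 0.976 to 2.01 with it, and the lowest were those of CON 2 (0.228) and BGZ_L 3 (0.348). Of the hepatocyte markers measured, 9 of 9 lay above 1 TPM in every group mean, as the tissue label has it. Their summed level had medians of 8322 TPM in CON (6842 to 10774) and 7222 in BGZ_L (6580 to 8003). With hydrocortisone the medians were 18885 TPM in KYDS (7209 to 69074) and 26005 in KYDS+BGZ_L (10439 to 48795). In bulk liver, fewer cells of a type and less RNA per cell cannot be told apart.

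Insig2, which holds the SREBP2 complex back in the endoplasmic reticulum, was the member that separated the livers by hydrocortisone. Without hydrocortisone it stood at 2.35, 2.97, 6.93, 3.71 and 2.00 TPM in CON, and its BGZ_L levels were 1.74, 2.50, 3.77, 2.44 and 2.94 TPM. With hydrocortisone it stood at 13.8, 11.2, 26.1, 8.88 and 12.1 TPM in KYDS, and its KYDS+BGZ_L levels were 63.9, 12.2, 21.6, 36.3 and 15.9 TPM. All 10 livers given hydrocortisone lay above all 10 livers not given it, and the nearest pair was KYDS 4 at 8.88 and CON 3 at 6.93 TPM. Among the 26 tested members Insig2 was the 1 that showed this, and 0.753% of all tested genes did so in the same direction. Its difference was 1.88 ± 0.39 for KYDS against CON, a 3.68-fold rise (adjusted p = 0.0128). For KYDS+BGZ_L against BGZ_L it was 3.04 ± 0.39, an 8.23-fold rise (adjusted p = 1.5e-04). The highest liver of all, KYDS+BGZ_L 1, also had the second lowest mitochondrial share (26.6%), and KYDS 3, the highest of its group, had the lowest (19.2%). With a covariate for mitochondrial content (log2 of nuclear over mitochondrial TPM), the rise was 1.38 for KYDS against CON and did not pass (adjusted p = 0.479), whereas for KYDS+BGZ_L against BGZ_L it was 2.76 and passed (adjusted p = 0.00109). Taking TPM over nuclear genes with no further scaling also ended the call for KYDS against CON (2.05, adjusted p = 0.0628). Over the other settings run for that comparison, which include leaving out each library in turn, the call was kept.

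**Figure D1:**
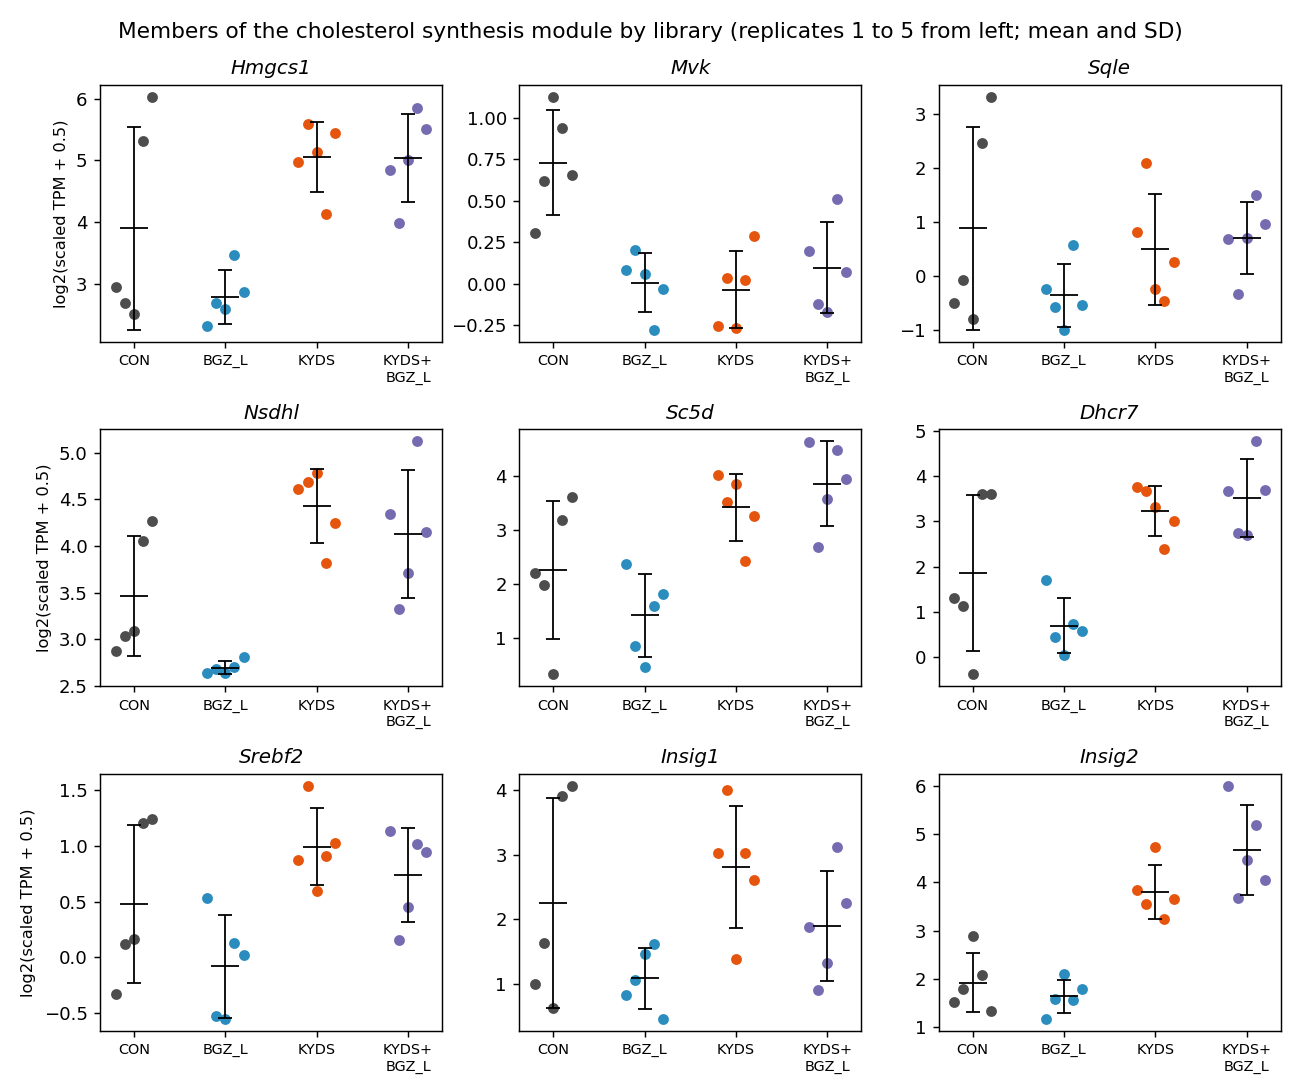
Levels of 9 members in each of the 20 libraries, as log2 of scaled TPM plus 0.5 on the vertical axis and the 4 groups of 5 on the horizontal axis, with points for libraries 1 to 5 from left to right and bars for mean and SD. The 10 livers given hydrocortisone lie above the other 10 for Insig2, while the CON points of Hmgcs1, Sqle, Dhcr7, Srebf2 and Insig1 fall in 2 sets, with CON 4 and CON 5 on top.

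The genes whose levels followed Insig2 most closely over the 20 libraries were not members of the module. By Spearman's rho, genes among the 5 closest were Perp (0.926), Mreg (0.911), Mal2 (0.902) and Cox7b (0.896), out of 11957 other genes tested. Among the other 25 tested members the closest were Nsdhl (0.692) and Sc5d (0.681), and Insig1 stood at 0.235. These rho values describe 20 libraries that also share differences of group and of mitochondrial share, and no test was made of them.

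With hydrocortisone alone, few members differed by more than the spread between livers. In KYDS against CON, 1 of 26 tested members rose (Insig2) and 1 fell (Mvk), or 7.69% of the members, where 6.22% of all tested genes passed (3.24% higher and 2.98% lower). That background of 744 genes was itself unsteady, and fell to between 223 and 433 genes without CON 1, CON 2, CON 3, KYDS 1, KYDS 2, KYDS 3 or KYDS 5, each left out alone. Both members had groups that did not overlap, as had 3.31% of all tested genes with KYDS higher and 3.17% with KYDS lower. The median difference of the 26 members was 0.23, beside 0.05 over all tested genes, and 16 members had positive and 10 negative values. The median of the members was 0.15, 0.12 and 0.11 without CON 1, CON 3 or KYDS 2, 0.36 and 0.42 without CON 4 or CON 5, and -0.24 with the covariate for mitochondrial content. In the 18 tested enzymes alone, 1 fell and 17 did not pass, with a median of -0.01.

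Mvk, the mevalonate kinase, was low in every group. It stood at 0.735, 1.03, 1.69, 1.42 and 1.08 TPM in CON and at 0.559, 0.652, 0.542, 0.325 and 0.480 in BGZ_L. In KYDS its values were 0.337, 0.523, 0.331, 0.516 and 0.721 TPM, and in KYDS+BGZ_L they were 0.645, 0.418, 0.389, 0.925 and 0.553. The KYDS livers all lay below the CON livers, with KYDS 5 just under CON 1, and so did all the BGZ_L livers, while 1 KYDS+BGZ_L liver, number 4, lay among the CON livers. Mean levels were 1.19 TPM in CON and 0.486 TPM in KYDS. The fall in KYDS was -0.77 ± 0.20 in limma (adjusted p = 0.0305). Without scaling between libraries it was -0.03 (adjusted p = 0.943), and it missed the threshold without CON 2, CON 3, KYDS 1, KYDS 2 or KYDS 3 (adjusted p 0.0509 to 0.0869). It also missed it over nuclear genes (adjusted p = 0.288), with the mitochondrial covariate (0.405) and with only the groups compared (0.0863). A replicate block (0.0540) and leaving out CON 2 and BGZ_L 3 together (0.0549) gave the same outcome. At a filter of 2 TPM Mvk was not tested, as its highest level was 1.69 TPM.

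Upstream and downstream of that kinase the first steps did not pass in KYDS against CON. Hmgcs1, the cytosolic synthase that commits acetyl units to the pathway, stood at 7.24, 5.94, 5.24, 39.4 and 65.0 TPM in CON and at 30.8, 47.4, 34.8, 17.0 and 42.9 TPM in KYDS. CON 4 and CON 5 were as high as the KYDS livers, and the other 3 CON livers lay below all of them. The difference was 1.15 ± 0.57 (adjusted p = 0.221), with a 95% interval of -0.033 to 2.33. Acat2, the thiolase at the start, gave -0.84 ± 0.48, and the decarboxylase Mvd gave -0.90 ± 0.73, both short of the threshold (adjusted p = 0.299 and 0.470). Pmvk, the kinase between Mvk and Mvd, gave 0.18 ± 0.38. The isoprenoid enzymes gave -0.79 ± 0.65 for the isomerase Idi1, -0.63 ± 0.59 for the farnesyl diphosphate synthase Fdps and 0.0075 ± 0.21 for the geranylgeranyl diphosphate synthase Ggps1. None of the 3 passed.

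The sterol-forming enzymes were split in sign. Squalene epoxidase, Sqle, stood at 0.202, 0.450, 0.0753, 5.00 and 9.49 TPM in CON and at 1.25, 3.78, 0.349, 0.222 and 0.693 TPM in KYDS. Within both groups the livers differed by more than 10-fold, so the difference of -0.39 ± 0.67 was far inside the spread (95% interval -1.79 to 1.01). Its sign turned to 0.35 without scaling, and to 0.0033 and 0.23 without CON 4 or CON 5. Squalene synthase (Fdft1) and lanosterol synthase (Lss) gave -0.0025 ± 0.49 and -0.43 ± 0.57. The lanosterol demethylase Cyp51 and the sterol reductase Tm7sf2 gave 0.78 ± 0.54 and 0.75 ± 0.49, and the methylsterol oxidase Msmo1 gave -0.025 ± 0.66. Nsdhl, a sterol dehydrogenase that works with Msmo1, gave 0.96 ± 0.32 and missed the threshold (adjusted p = 0.0751). It passed without CON 4, CON 5 or KYDS 4 (adjusted p 0.0448, 0.0384 and 0.0473), and Hmgcs1 passed without CON 5 (0.0497).

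Among the last steps, the isomerase Ebp gave -0.17 ± 0.38, the lathosterol oxidase Sc5d 1.15 ± 0.53 and Dhcr7, whose enzyme forms cholesterol itself, 1.38 ± 0.61. None passed (adjusted p = 0.815, 0.186 and 0.173). With the mitochondrial ratio as a covariate, Sc5d turned to -0.058. Of the control genes, Srebf2 itself gave 0.51 ± 0.32 (adjusted p = 0.334), Scap 0.25 ± 0.34, Insig1 0.56 ± 0.62 and Mbtps1 0.23 ± 0.18. The genes that move sterols between membranes, the carrier Stard4 and the lysosomal exporters Npc1 and Npc2, gave 0.23 ± 0.26, 0.30 ± 0.40 and 0.48 ± 0.46. None of these 7 passed. The mean mitochondrial share and the median of the summed hepatocyte markers differed between the same groups, although KYDS and CON livers overlapped in both. Of 9 hepatocyte markers, 2 rose and 1 fell. The part of the share and of the markers in these differences was not tested. Because the share moved with the groups, the fit with the covariate cannot tell it apart from hydrocortisone.

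The widest spread of the enzymes was among the control livers. CON 4 and CON 5 were the 2 highest CON libraries in 15 of 18 tested enzymes (83.3%) and in 4 of 8 tested members of control and movement, compared with 18.3% of all tested genes. The median enzyme level was 11.6 TPM in CON 4 and 14.9 in CON 5, and 1.65 to 3.30 TPM in the other 3 CON livers. The exceptions among the enzymes were Acat2, Mvk and Ggps1. Idi1 stood at 1.10, 2.97, 1.25, 11.6 and 26.5 TPM across the CON livers and Fdps at 29.6, 30.0, 13, 132 and 133. Insig1, the SREBP target among the control genes, ran the same way with 1.5, 2.61, 1.04, 14.5 and 16.4 TPM, and so did Srebf2 with 0.294, 0.585, 0.617, 1.80 and 1.87. Insig2 did not, and CON 5 was its lowest CON liver. The median SD of the enzymes within a group, on the log2 scale, was 1.29 in CON and 0.56, 0.68 and 0.67 in BGZ_L, KYDS and KYDS+BGZ_L, beside 0.56, 0.55, 0.46 and 0.38 for all tested genes. The mitochondrial shares of CON 4 and CON 5 were 68.5% and 70.3%, inside the CON range of 65.6% to 90.1%. Other factors that may set these livers apart were not tested.

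Other groups also had a liver that stood apart in many enzymes at once. KYDS 4 was the lowest KYDS liver in 14 of 18 enzymes (24.1% of all tested genes), and KYDS+BGZ_L 2 was the lowest of its group in 12 of 18 (24.9%). Those livers had the highest mitochondrial share of their groups, 68.9% and 70.2%. KYDS+BGZ_L 4 was the highest of its group in 12 of 18 enzymes (23.6% of all tested genes), with a share of 35.1%. KYDS 2 was the highest KYDS liver in 10 of 18 (16.8%) and BGZ_L 4 the highest BGZ_L liver in 9 of 18 (18.6%). Levels of most members varied together from liver to liver. By Spearman's rho with Sqle over 20 libraries, Idi1 stood at 0.890, Dhcr7 at 0.835, Hmgcs1 at 0.833 and Fdft1 at 0.818, and Srebf2 and Insig1 at 0.814 and 0.794. Acat2 (0.191), Mvk (0.083), Ggps1 (-0.20), Insig2 (0.275), Mbtps1 (0.071) and Npc2 (0.017) did not run with it. Npc1 (0.365) and Stard4 (0.412) followed it only weakly. Outside the module, genes among the 5 closest to Sqle were the bile acid ligase Slc27a5 (0.875), Khdc4 (0.845) and Golga5 (0.839). These values are descriptions, with no test.

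**Figure D2:**
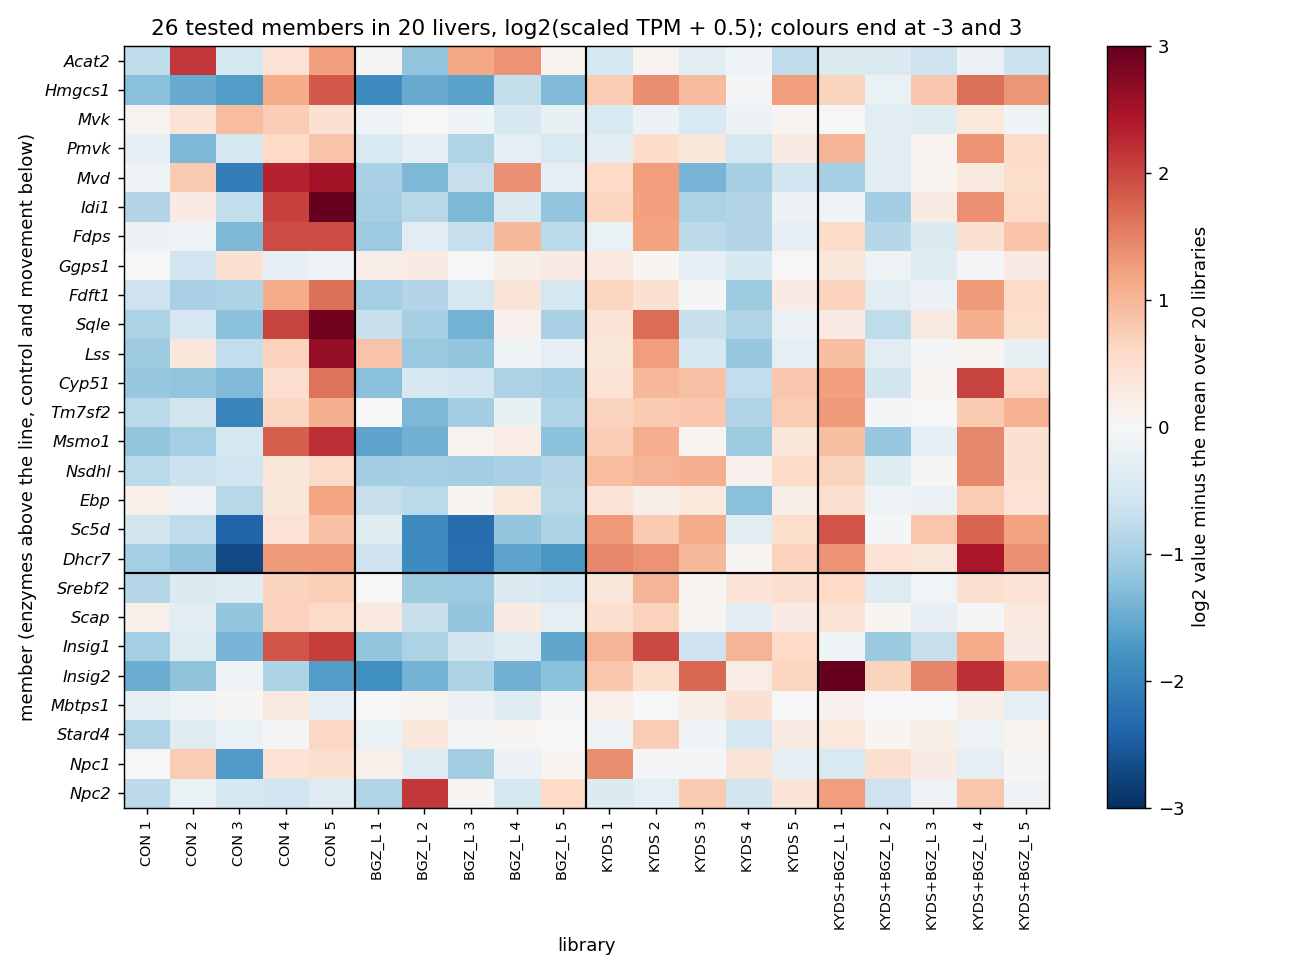
Levels of the 26 tested members (vertical axis, 18 enzymes above the line and 8 control and movement genes below) in the 20 libraries (horizontal axis), as log2 of scaled TPM plus 0.5 minus the member's mean, red above and blue below it. CON 4 and CON 5 are red or pale red in most enzymes and in Insig1 while the other CON livers are mostly blue. Insig2 is blue or pale in the 10 livers without hydrocortisone and red or pale in the 10 with it, palest of these in KYDS 4.

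When both groups compared had received BGZ_L powder, more of the module rose with hydrocortisone. In KYDS+BGZ_L against BGZ_L, 5 of 26 tested members rose and none fell, a share of 19.2%, where 17.2% of all tested genes passed in either direction and 8.72% rose. Those 2058 genes became 1339, 1139 and 1103 without BGZ_L 3, KYDS+BGZ_L 1 or KYDS+BGZ_L 4. The 5 were Hmgcs1, Nsdhl, Sc5d, Dhcr7 and Insig2, and in each of them the 2 groups did not overlap, as in 7.17% of all tested genes in that direction. The median of the 26 members was 0.82, beside 0.06 over all tested genes, and 23 of 26 values were positive. With the mitochondrial covariate that median was 0.52. Among the 18 tested enzymes 4 rose, with a median of 1.04.

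Dhcr7 gave the largest rise of the enzymes. It stood at 2.75, 0.858, 0.542, 1.16 and 0.996 TPM in the BGZ_L livers, and in KYDS+BGZ_L its levels were 12.2, 6.23, 5.95, 26.7 and 12.4 TPM. Every KYDS+BGZ_L liver lay above the highest BGZ_L liver, number 1. The difference was 2.81 ± 0.61, 7.01-fold (adjusted p = 0.0056). Sc5d, one step earlier, stood at 4.68, 1.30, 0.874, 2.51 and 3.02 TPM in the BGZ_L livers, and in KYDS+BGZ_L its levels were 24.1, 5.89, 11.3, 21.8 and 14.8 TPM. It rose by 2.44 ± 0.53, 5.42-fold (adjusted p = 0.0055). Ebp, before Sc5d, gave 0.66 ± 0.38 and did not pass (adjusted p = 0.233).

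Hmgcs1 stood at 4.49, 5.97, 5.52, 10.6 and 6.85 TPM in the BGZ_L livers, and in KYDS+BGZ_L its levels were 28.4, 15.4, 31.5, 57.1 and 45.1 TPM. All 5 BGZ_L livers were low, and the lowest KYDS+BGZ_L liver, number 2, was above them. The rise was 2.25 ± 0.57, 4.76-fold (adjusted p = 0.0116), and it missed the threshold with the mitochondrial ratio as a covariate (1.84, adjusted p = 0.0735). Nsdhl stood at 5.74, 5.94, 5.73, 6.0 and 6.54 TPM in BGZ_L, where the 5 livers lay close together, and at 19.8, 9.53, 12.6, 34.4 and 17.2 TPM in KYDS+BGZ_L. It rose by 1.43 ± 0.32, 2.70-fold (adjusted p = 0.0066), and missed the threshold over nuclear genes alone (1.55, adjusted p = 0.0535).

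The rest of the pathway did not pass in that comparison. The nearest were Cyp51 at 1.52 ± 0.54 (adjusted p = 0.0560), Tm7sf2 at 1.31 ± 0.49 (0.0696), Pmvk at 1.01 ± 0.38 (0.0698) and Srebf2 at 0.82 ± 0.32 (0.0786). Srebf2 stood at 0.945, 0.193, 0.181, 0.596 and 0.515 TPM in the BGZ_L livers, and in KYDS+BGZ_L its levels were 1.70, 0.612, 0.865, 1.52 and 1.43 TPM, and the groups overlapped through BGZ_L 1, without which Srebf2 passed (adjusted p = 0.0402). Sqle stood at 0.344, 0.169, 0, 0.983 and 0.187 TPM in BGZ_L, where number 3 is listed at 0, and at 1.10, 0.296, 1.12, 2.33 and 1.45 TPM in KYDS+BGZ_L. Its difference was 1.06 ± 0.67, with a 95% interval of -0.34 to 2.46. Insig1 gave 0.81 ± 0.62, Idi1 1.16 ± 0.65 and Fdft1 0.91 ± 0.49. Mvk gave 0.09 ± 0.20, which turned to -0.014 without KYDS+BGZ_L 4. Scap, Mbtps1, Stard4, Npc1 and Npc2 lay between -0.03 and 0.41.

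Without KYDS+BGZ_L 2, the count for that comparison was 8, with Pmvk, Cyp51 and Srebf2 added, where 2169 genes in all passed. The summed hepatocyte markers also moved with these groups, with 5 of 9 markers higher and 1 lower, and their part in the result was not tested.

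**Figure D3:**
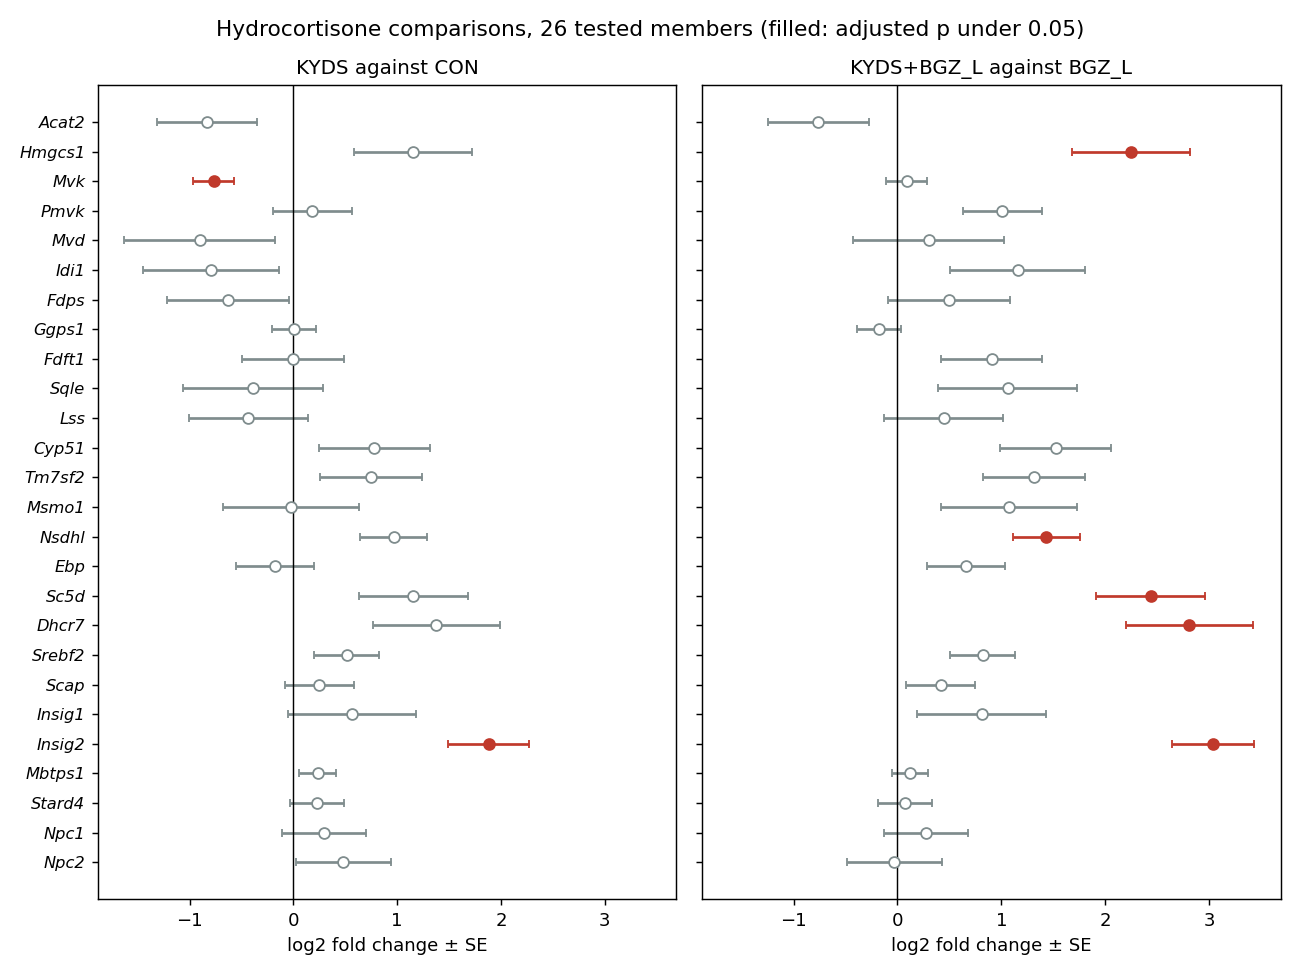
Log2 differences of the 26 tested members (vertical axis, in pathway order from the top) for KYDS against CON on the left and KYDS+BGZ_L against BGZ_L on the right, with bars for SE and filled red points for an adjusted p under 0.05. On the left Insig2 (1.88) and Mvk (-0.77) are filled, and on the right Insig2 (3.04), Dhcr7 (2.81), Sc5d (2.44), Hmgcs1 (2.25) and Nsdhl (1.43).

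Promoter sequence was examined for members of the module whether or not their levels differed. RefSeq promoters of build GRCr8 (250 bases before to 50 after the start of the gene) were matched for 25 of the 29 members. The box CCAAT, which the factor NF-Y binds beside SREBP sites, was found on either strand in 18 of 25 member promoters (72.0%), and in 37.5% of all 33469 promoters. The Sp1 box GGGCGG was in 20 of 25 (80.0%), and in 33.1% of all. The sterol regulatory element in the form TCACNCCAC was in 0 of 25, and in 1.12% of all, which says only that these letters are not in this window. The E-box CACGTG was in 3 of 25 (12.0%), and in 6.42% of all. The 150 bases before the start are given for the 5 members that rose in KYDS+BGZ_L against BGZ_L, read 5′ to 3′ on the strand of the gene, with CCAAT or its complement ATTGG in capitals. They lie at chr2:53382154-53382303 on the plus strand, chrX:155817210-155817359 on the plus strand, chr8:51538278-51538427 on the minus strand, chr1:208444284-208444433 on the plus strand and chr13:35040099-35040248 on the minus strand, in that order.
Hmgcs1: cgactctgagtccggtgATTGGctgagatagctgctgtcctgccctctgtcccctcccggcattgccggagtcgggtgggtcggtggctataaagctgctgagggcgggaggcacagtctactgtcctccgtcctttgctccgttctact
Nsdhl: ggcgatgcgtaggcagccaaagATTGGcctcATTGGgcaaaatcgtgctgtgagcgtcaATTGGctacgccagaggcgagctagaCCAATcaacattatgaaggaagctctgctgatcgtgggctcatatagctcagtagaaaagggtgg
Sc5d: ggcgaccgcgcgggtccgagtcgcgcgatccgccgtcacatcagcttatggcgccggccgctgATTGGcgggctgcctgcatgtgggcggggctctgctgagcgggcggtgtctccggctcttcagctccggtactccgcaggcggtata
Dhcr7: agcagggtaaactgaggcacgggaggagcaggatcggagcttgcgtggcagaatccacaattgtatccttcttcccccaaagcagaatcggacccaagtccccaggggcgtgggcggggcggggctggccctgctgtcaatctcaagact
Insig2: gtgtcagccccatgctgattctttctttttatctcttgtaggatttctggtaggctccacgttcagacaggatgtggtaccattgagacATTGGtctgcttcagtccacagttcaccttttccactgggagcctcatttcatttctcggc
Nsdhl held 4 such boxes in this stretch, Hmgcs1, Sc5d and Insig2 held 1 each, and Dhcr7 held none. These matches describe the letters and not binding of a factor in these livers.

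BGZ_L powder alone gave lower values in most of the module, but none passed. In BGZ_L against CON, 0 of 26 tested members passed in limma, as did 0% of all tested genes, and 3 members and 722 of 11958 genes had an unadjusted p under 0.05. The median of the members was -0.56, beside -0.01 over all tested genes, and 23 of 26 values were negative. Without CON 5 the median of the members was -0.33, and without CON 4 it was -0.41. The 3 members were Mvk (-0.72 ± 0.20, adjusted p = 0.403), Idi1 (-1.73 ± 0.65, adjusted p = 0.759) and Nsdhl (-0.77 ± 0.32, adjusted p = 0.781). Mvk and Nsdhl were lower in all 5 BGZ_L livers than in any CON liver, which held for 0.326% of all tested genes. For Idi1, the BGZ_L livers stood at 0.967, 1.16, 0.663, 1.69 and 0.797 TPM, level with CON 1 and CON 3 and far below CON 4 and CON 5. Hmgcs1 (-1.11 ± 0.57), Sqle (-1.24 ± 0.67) and Insig1 (-1.17 ± 0.62) were also negative without passing, and CON 4 and CON 5 supply the high CON values of all 3. Insig1 in BGZ_L was 1.27, 1.58, 2.26, 2.57 and 0.867 TPM. Stard4, Npc2 and Ggps1 were the members with positive values, and the highest was Npc2 at 0.78 ± 0.46, where BGZ_L 2 stood at 69.3 TPM and the other BGZ_L livers at 8.10 to 23.9. Markers of Kupffer cells, the resident macrophages of the liver, moved with it. Their summed level over 10 genes was 967 TPM in BGZ_L 2 and 209 in BGZ_L 5, the 2 BGZ_L livers highest in Npc2, and 72.0 to 79.6 in the other 3 (CON 60.8 to 114). None of the 10 was at 0 in all libraries of a group, 0 of 10 passed in limma for BGZ_L against CON, and their part in the Npc2 values was not tested.

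Adding BGZ_L powder to hydrocortisone did not move any member past the threshold. In KYDS+BGZ_L against KYDS, 0 of 26 members passed in limma, where 0.125% of all tested genes did, and 1 member and 411 genes in all had an unadjusted p under 0.05. That member was Insig2 at 0.88 ± 0.39 (adjusted p = 0.999), with a 95% interval of 0.056 to 1.70. The median of the 26 was 0.14, beside -0.02 over all tested genes, and it ran from -0.068 without KYDS 4 to 0.30 without KYDS+BGZ_L 2, so its sign rested on single libraries. Hmgcs1 gave -0.012 ± 0.57, with an interval of -1.20 to 1.17, and Dhcr7 gave 0.28 ± 0.61, with -0.99 to 1.55. Insig1 was lowest at -0.92 ± 0.62, from 7.68, 15.5, 2.12, 7.67 and 5.59 TPM in KYDS and 3.17, 1.37, 2.00, 8.20 and 4.27 in KYDS+BGZ_L, and the groups overlapped. These intervals leave room for differences of 2-fold in either direction in Hmgcs1.

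Whether hydrocortisone acted differently with and without BGZ_L powder was asked by the interaction in the same fit. It passed for 0 of 26 members in limma, where 0.0335% of all tested genes passed, and 2 members and 449 genes in all had an unadjusted p under 0.05. They were Mvk at 0.86 ± 0.28 (adjusted p = 1.00) and Idi1 at 1.95 ± 0.92 (adjusted p = 1.00). The median was 0.83 over the members and -0.01 over all tested genes, and 21 of 26 values were positive. Without CON 5 the median of the members was 0.42, and without scaling it was 0.34, where all tested genes stood at -0.42. The 4 enzymes that rose with hydrocortisone in the presence of BGZ_L powder gave interactions of 1.43 ± 0.86 for Dhcr7, 1.28 ± 0.75 for Sc5d, 1.10 ± 0.80 for Hmgcs1 and 0.47 ± 0.46 for Nsdhl. None of these passed, so the larger number of rises beside BGZ_L was not shown to differ from that beside CON.

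Against the vehicle livers, the combined treatment repeated the pair of calls of hydrocortisone alone, with the same CON livers on the other side. In KYDS+BGZ_L against CON, 2 of 26 members passed (7.69%), where 11.4% of all tested genes did (1360 genes, and 670, 398 and 389 without CON 2, KYDS+BGZ_L 1 or KYDS+BGZ_L 4). Insig2 rose by 2.76 ± 0.39 (adjusted p = 4.2e-04), and Mvk gave -0.63 ± 0.20 (adjusted p = 0.0443), a fall that lost its call in 12 of 20 fits that each left out 1 library. Those libraries were CON 2 to CON 5, BGZ_L 5, KYDS 1, KYDS 2 and each of the 5 KYDS+BGZ_L livers (adjusted p 0.0505 to 0.0904). Without scaling it was -0.11 (adjusted p = 0.818). With a replicate block Mvk missed the threshold (adjusted p = 0.0736) and Sc5d passed (0.0443). Sc5d at 1.60 ± 0.53 and Dhcr7 at 1.66 ± 0.61 missed the threshold (adjusted p = 0.0542 and 0.0806). Both passed without CON 4 (adjusted p = 0.0378 and 0.0295) or CON 5 (0.0279 and 0.0326), and Sc5d also without KYDS 4 (0.0499) or KYDS+BGZ_L 2 (0.0273). Without CON 5, 4 members passed, namely Hmgcs1, Sc5d, Dhcr7 and Insig2.

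Across groups the module kept a wide range of levels. Ebp was among the most abundant members, with 74.2 ± 39.1 TPM in CON, 48.7 ± 19.3 in BGZ_L, 63.9 ± 22.2 in KYDS and 75.3 ± 20.9 in KYDS+BGZ_L (mean ± SD, n = 5). Fdps and Mvd came next in CON, at 67.5 ± 59.6 and 63.6 ± 58.2 TPM. At the low end Ggps1 stood at 0.916 ± 0.383 TPM in CON and Srebf2 at 1.03 ± 0.745. Mbtps1 lay between 1.72 and 3.42 TPM in all 20 livers, and Scap ran from 1.45 to 6.63 TPM. Pmvk ran from 3.15 to 23.0 TPM, Fdft1 from 3.34 to 25.0, Tm7sf2 from 3.18 to 34.9, Cyp51 from 0.527 to 9.96 and Msmo1 from 0.516 to 13.5. Lss ran from 0, where BGZ_L 3 is listed, to 6.43 TPM, Acat2 from 0.411 to 8.54, Stard4 from 0.432 to 2.43 and Npc1 from 1.97 to 20.9.

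Other genes around the pathway were counted by list. Over all tested genes, 6.22% passed in KYDS against CON and 17.2% in KYDS+BGZ_L against BGZ_L. The calls of genes in these lists were not checked under the other settings. There the genes called in all for KYDS against CON fell from 744 to 92 over nuclear genes and to 21 with the covariate. For KYDS+BGZ_L against BGZ_L, 2058 fell to 577 and 668. Of 11 tested genes for further steps and SREBP targets, 1 rose in KYDS against CON, and 5 rose and 1 fell in KYDS+BGZ_L against BGZ_L. Srebf1, the gene of the related factor SREBP1, rose in both (2.05 ± 0.49 and 1.82 ± 0.49, adjusted p = 0.0226 and 0.0162). In the second comparison, Tmem97, which binds the lysosomal transporter Npc1, rose by 2.16 ± 0.54, the fatty acid desaturase Fads1 rose by 1.94 ± 0.50, and the fatty acid elongase Elovl6 fell (adjusted p = 0.0172). Elovl6 is listed at 0 in all 5 KYDS+BGZ_L livers and stood at 2.51, 0.773, 5.55, 2.16 and 0 TPM in BGZ_L, so the size of its fall is not given. Of 6 tested genes of sterol sensing and protein degradation, 1 rose in KYDS against CON and 2 rose in KYDS+BGZ_L against BGZ_L. The ubiquitin ligase Rnf139 rose in both (1.09 ± 0.28 and 1.02 ± 0.28) and Pgrmc1, a membrane protein that binds heme, in the second (1.49 ± 0.35).

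Of 9 tested genes of efflux, uptake and the sterol receptor LXR, 0 passed in KYDS against CON and 1 rose beside BGZ_L, the receptor gene Vldlr at 0.65 ± 0.21. Vldlr was low, at 0.0469 to 0.109 TPM in BGZ_L and 0.265 to 0.553 in KYDS+BGZ_L. The CON livers, at 0.180 to 0.965 TPM, spanned the range of KYDS+BGZ_L. Of 10 tested genes for esters and lysosomal release, 0 passed in the first and 1 rose in the second, the sterol acyltransferase Soat2 at 1.90 ± 0.43. In the isoprenoid branch, 1 of 10 genes fell in each comparison, in both cases the dolichol synthase gene Dhdds (-1.45 ± 0.37 and -1.94 ± 0.37). Of 4 tested genes of oxysterols, 0 passed in the first and 1 fell in the second, the hydroxylase gene Cyp7b1 at -1.48 ± 0.41. In BGZ_L against CON, KYDS+BGZ_L against KYDS and the interaction, 0 of the 50 genes tested in these 6 lists passed in limma. The shares over all tested genes were 0%, 0.125% and 0.0335%. An unadjusted p under 0.05 was found for 7, 1 and 1 of the 50. Over all 11958 tested genes it was found for 722, 411 and 449. In KYDS against CON the lists for efflux, esters and oxysterols held 0 calls. There 4 of 9, 5 of 10 and 1 of 4 genes had an unadjusted p under 0.05, as had 2873 of all 11958 tested genes.

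The way libraries were put on 1 scale changed how many members passed in KYDS against CON. With the deposited values unscaled, all tested genes moved by a median of 1.03 and 14 of 27 tested members passed, all higher, where 5745 genes were higher and 67 lower. With scaling the split was 388 higher and 356 lower. For KYDS+BGZ_L against BGZ_L the unscaled shift was 0.61, and 8 of 27 members passed, where 1580 genes were higher and 233 lower. Relative to those shifts the unscaled values of Insig2, 3.06 and 3.73, remained the highest of the 9 members compared.

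**Figure D4:**
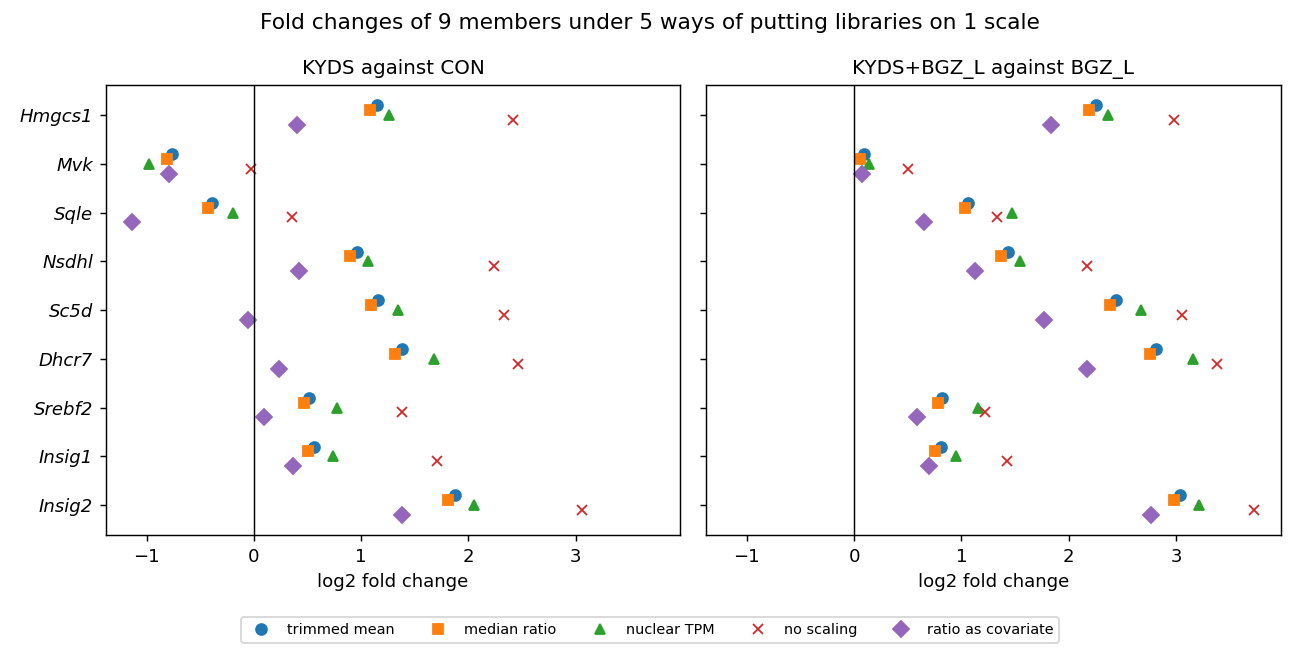
Log2 differences of 9 members (vertical axis) for KYDS against CON on the left and KYDS+BGZ_L against BGZ_L on the right, under 5 ways of putting libraries on 1 scale, 1 marker shape for each. Crosses for no scaling lie to the right of the circles for the trimmed mean, and diamonds for the mitochondrial ratio as a covariate lie to their left for most members, with Insig2 at 1.38 to 3.06 on the left panel.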

How the data were processed

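RNA of 20 rat livers, 4 groups of 5, was sequenced by the authors, and read 1 of each pair was used, per the labels. The deposited values are read here as TPM from their 2 decimals and from their sums (914343 to 983962 in a library), although their name says raw counts. The aligner, counter and formula used by the authors were not given in the sources used here. In the submitters' processing notes the mouse builds GRCm38, mm10 and GRCm39 are named, while the gene identifiers are of rat, so the build behind the values is unknown. Depth is unknown, so no interval or limit that needs it was computed.

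TPM values were scaled by an unweighted trimmed mean of log ratios (trimming 30% of the ratios and 5% of the levels from either end). The 11958 genes that reached 0.5 scaled TPM in 5 or more libraries were tested on the log2 scale after adding 0.5. Rows without a symbol, 33 in number, held at most 0.0111% of a library. A single limma model held the 4 group means (trended, robust, 16 residual degrees of freedom), and 6 contrasts were adjusted by Benjamini-Hochberg over all tested genes. Analyses ran in R 4.3.3 (limma 3.58.1), and figures were drawn in Python 3.11.15 by matplotlib 3.10.9. The method was tested on simulated data.

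The members, gene lists and marker lists were chosen with earlier results of these data known. Members that passed in any comparison, and Srebf2, Insig1, Insig2, Hmgcs1 and Sqle in any case, were given library by library, others by ranges and differences, and genes of other lists where they passed (at most 3 in each direction). Idi1 and Fdps were given library by library after their values were seen. A few genes of these lists are counted but not reported here. Alternatives were other scalings, added constants, filters, a covariate, a replicate block, fits of only the groups compared and leaving out libraries. Labels give no batch.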

Additional observations from a re-analysis of the deposited data

Results flagged for a closer look

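In 2 of 104 sets of 5 libraries (26 members in 4 groups), 1 library lay far from the other 4. Distance was judged on the log2 scale used for the tests. Chance alone flags about 1 set in 20, which would be 5.2 of 104. Both were the same liver, KYDS 4, and both were low. Tm7sf2, a sterol reductase, stood at 7.31 TPM in KYDS 4 and at 22.6 to 24.9 TPM in the other KYDS livers. Ebp, the sterol isomerase, stood at 25.0 TPM in KYDS 4 and at 69.3 to 80.2 TPM in the others. KYDS 4 had the highest mitochondrial share of its group, 68.9%, and the part of that share in these values was not tested.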

How the results depend on the processing

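Members called were counted again under each alternative. For KYDS against CON the count of 2 became 14 without scaling, 0 over nuclear genes and 0 with the mitochondrial ratio as a covariate. It was 1 with a filter at 2 TPM (where Mvk was not tested), with only the groups compared, or without CON 2 and BGZ_L 3, an alternative chosen after seeing the data. It ran from 1 to 4 when each library was left out. For KYDS+BGZ_L against BGZ_L the count of 5 became 8 without scaling and with only the groups compared, 6 with a filter at 2 TPM, and 4 over nuclear genes (without Nsdhl) or with the covariate (without Hmgcs1). It ran from 5 to 8 with a library left out. For KYDS+BGZ_L against CON the count of 2 became 1 over nuclear genes, with 0.1 added, with no filter, with the covariate, with only the groups compared and without CON 2 and BGZ_L 3. It became 3 without scaling (Sc5d, Dhcr7 and Insig2) and ran from 1 to 4 with a library left out. It stayed at 2 with a filter at 2 TPM, where Mvk was not tested, and with the replicate block, where Mvk missed the threshold. Sc5d was called in both. The other comparisons gave 0 in all settings run. Insig2 passed in 31 of 31 settings for KYDS+BGZ_L against BGZ_L and in 29 of 31 for KYDS against CON. Signs turned for Sqle in KYDS against CON (0.35 without scaling, 0.0033 without CON 4, 0.23 without CON 5, from -0.81 to 0.23 over the libraries left out), for Sc5d in KYDS against CON with the covariate (-0.058) and for Mvk in KYDS+BGZ_L against BGZ_L without KYDS+BGZ_L 4 (-0.014, up to 0.16 without others). The cause was not tested. Genes called in all for KYDS against CON, 744, became 5812 without scaling, 92 over nuclear genes, 21 with the covariate, 364 with no filter, 258 with only the groups compared and 257 without CON 2 and BGZ_L 3, and ran from 223 (without KYDS 3) to 1070 (without CON 4) with a library left out. For KYDS+BGZ_L against BGZ_L, 2058 became 577 over nuclear genes, 668 with the covariate and 1366 without CON 2 and BGZ_L 3, and ran from 1103 (without KYDS+BGZ_L 4) to 2525 (without BGZ_L 1). For KYDS+BGZ_L against CON, 1360 became 152 over nuclear genes, 90 with the covariate, 880 with no filter and 763 without CON 2 and BGZ_L 3.

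No clear pairing of the rats by replicate number was seen, and a weak one cannot be told from these values. Of 30 correlations between livers with the same number, 7 were above 0.1 (-0.46 to 0.333), and 4 of 20 livers matched their own number best. With the replicate block, 1 member passed for KYDS against CON, 5 for KYDS+BGZ_L against BGZ_L and 2 for KYDS+BGZ_L against CON, where Mvk lost its call and Sc5d gained one.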
